A study of Homo sapiens with 6 samples.

Results

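The enzymes that carry fructose-1,6-bisphosphate to lactate were examined in growing and senescent fibroblasts. The 10 genes were ALDOA, ALDOC, TPI1, PGK1, PGAM1, ENO1, ENO2, PKM, LDHA and LDHB, and every probe set that the platform table assigns to one of them was taken. This gave 24 of the 54613 probe sets on the array, and 10 of the 19775 genes that have a probe set of their own. PGK1 had 6 probe sets, ENO1 had 4, ALDOA and TPI1 had 3 each, PKM and LDHB had 2 each, and ALDOC, PGAM1, ENO2 and LDHA had 1 each.

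RNA came from IMR90 cells, a human diploid lung fibroblast line, that carried ER:Ras in all 3 groups. ER:Ras is an oncogenic Ras fused to the hormone-binding part of the oestrogen receptor, which 4-hydroxytamoxifen (4-OHT) switches on, and it drives the cells into oncogene-induced senescence (OIS). Growing cells received neither 4-OHT nor siRNA, whereas both senescent groups were kept in 100 nM 4-OHT for 6 days and transfected 4 days before RNA was taken, the Ctrl-KD OIS group with a control siRNA and the RB-KD OIS group with a mixture of siRNAs against RB1. Each group had 2 arrays, and the senescent groups are called Ctrl-KD and RB-KD from here on. Ras induction, 4-OHT and transfection therefore cannot be told apart in a comparison with growing cells. The comparison of the OIS states is the one where the treatment differs by the siRNA target alone. The paper reports that RB knockdown in OIS cells raised MCM3 and MCM5 and partly restored DNA replication. It also reports moderately fewer cells with senescence-associated heterochromatin foci. Senescent is therefore a label of treatment here, and arrest was not measured on these arrays.

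Aldolase splits fructose-1,6-bisphosphate into a pair of three-carbon sugars, which triose phosphate isomerase interconverts. Glyceraldehyde-3-phosphate dehydrogenase, phosphoglycerate kinase, phosphoglycerate mutase, enolase and pyruvate kinase then carry the carbon to pyruvate with a net gain of ATP, and lactate dehydrogenase turns pyruvate into lactate and restores NAD+. Several steps have tissue-biased paralogs: ALDOA and ENO1 are the widely expressed forms, whereas ALDOC and ENO2 are best known from brain and neurons. Many of these genes are known targets of the hypoxia-inducible factor and of MYC.

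To show the sequences in front of genes that changed in both or in 1 of the senescent states, the promoter windows of ALDOC, PGK1 and ENO2 are given, a choice made after their values were seen, from RefSeq on GRCh38.p14. Each runs from 250 bases before to 50 bases after a transcription start, 5′ to 3′ on the strand of the gene. Capitals mark ACGTG, the core of the hypoxia response element, on either strand (CACGT is the same word on the other strand).
ALDOC (chr17:28576846-28577145, minus strand): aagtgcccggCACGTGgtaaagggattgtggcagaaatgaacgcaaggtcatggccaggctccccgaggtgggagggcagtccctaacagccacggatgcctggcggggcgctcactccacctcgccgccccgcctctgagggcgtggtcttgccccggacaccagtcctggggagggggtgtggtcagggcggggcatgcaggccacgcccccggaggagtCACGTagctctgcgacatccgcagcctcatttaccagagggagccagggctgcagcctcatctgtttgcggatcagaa
PGK1 (chrX:78103998-78104297, plus strand): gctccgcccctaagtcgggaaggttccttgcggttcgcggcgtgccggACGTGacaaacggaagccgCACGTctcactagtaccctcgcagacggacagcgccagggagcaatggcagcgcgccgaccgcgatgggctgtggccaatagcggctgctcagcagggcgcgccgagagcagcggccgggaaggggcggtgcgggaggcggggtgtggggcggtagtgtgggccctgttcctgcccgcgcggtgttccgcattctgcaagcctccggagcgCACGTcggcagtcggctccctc
ENO2 (chr12:6914330-6914629, plus strand): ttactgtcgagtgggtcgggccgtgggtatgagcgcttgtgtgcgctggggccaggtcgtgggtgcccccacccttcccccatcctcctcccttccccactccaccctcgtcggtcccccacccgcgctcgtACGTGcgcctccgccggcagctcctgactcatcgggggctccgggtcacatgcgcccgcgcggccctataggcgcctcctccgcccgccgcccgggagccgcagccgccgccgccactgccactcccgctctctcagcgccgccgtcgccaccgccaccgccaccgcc
RefSeq held 14 windows of this length for the 10 genes. ACGTG on either strand was found in 8 of the 14 and in 21.4% of all 35116 windows. The 8 belonged to 6 genes (ALDOA, ALDOC, TPI1, PGK1, ENO2 and LDHA). The printed windows all hold it, whereas that of PGAM1, which also rose in both states, had 0 matches. The most, 5, were in an LDHA window (chr11:18394313-18394612), and LDHA was not called. The E-box CACGTG, which contains ACGTG on both strands and so is counted under both, was in 3 of the 14 and in 7.26% of all windows. The GC box GGGCGG was in 11 of the 14 and in 45% of all. The E2F words TTTCCCGC, TTTCGCGC, TTTGCCGC and TTTGGCGC, searched on both strands because RB acts through E2F factors, were in 0 of the 14 and in 3.31% of all. With a background of 3.31%, 14 windows are too few to tell 0 from it. All of these counts describe letters in a window and not the binding of a factor.

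Signals are MAS5 intensities on a linear scale that the authors scaled to a common level per array, and differences were tested on log2 signals with limma over all probe sets above the median of an array on at least 2 of the 6 arrays. A call is an adjusted p below 0.05. Signals are given for single arrays or as ranges over arrays (n = 2 per group). The SE and 95% intervals come from the limma fit, and the intervals are not adjusted. The 2 arrays of a group come from separate experiments. A p-value rests on a spread estimated over the 3 groups together and moderated towards that of all tested probe sets, not on the 2 arrays of a group alone. Signal cannot be compared between probe sets, and in bulk RNA fewer expressing cells cannot be told apart from less RNA per cell. Across the arrays the median signal was 46 to 51.8 and the correlation of log2 signals across probe sets was 0.961 to 0.967 within groups and 0.891 to 0.945 between groups. RB1 signal was 2627 and 2528 in growing, 2578 and 1914 in Ctrl-KD and 222 and 228 in RB-KD cells. All 10 fibroblast markers lay above the median on every array, and their summed signal was 238566 to 241654 in growing, 159705 to 161773 in Ctrl-KD and 173609 to 206186 in RB-KD cells. Of the other lists, 1 of 5 epithelial and 1 of 4 endothelial markers lay above the median on every array, against 0 of 3 leukocyte, 0 of 3 skeletal muscle and 0 of 3 neuronal markers.

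**Figure D1:**
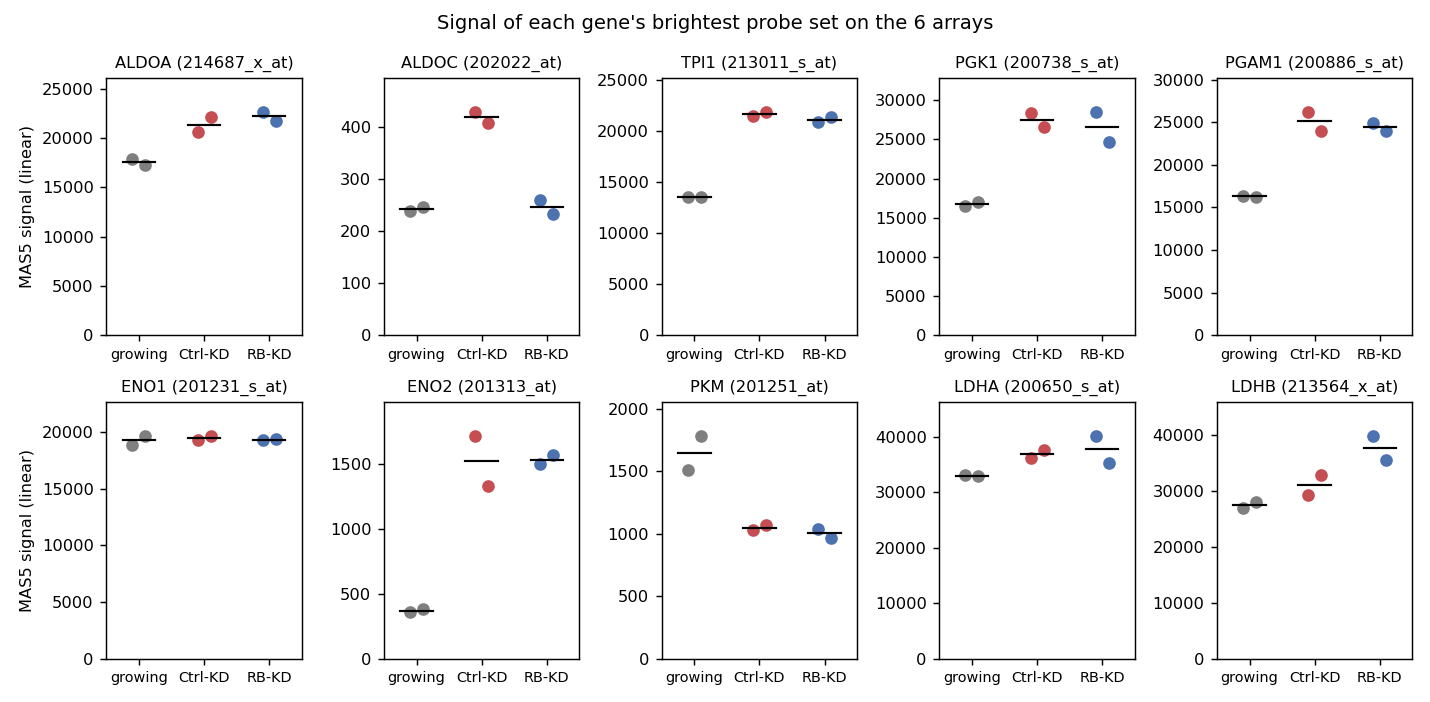
Signal of the brightest probe set of each of the 10 genes on each of the 6 arrays, on a linear axis, by group (2 arrays each). ENO2 sits at 358 and 383 in growing cells and far above that on every OIS array, whereas ALDOC is raised in the Ctrl-KD arrays and lies between 232 and 259 on the growing and RB-KD arrays.

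Several of the lower glycolytic genes, TPI1, PGK1, PGAM1 and ENO2 among them, were higher in senescent than in growing cells. In Ctrl-KD cells 13 of the 22 tested probe sets were called higher than in growing cells and 1 was called lower, against 15.8% and 18.3% of all 30139 tested probe sets. In RB-KD cells the counts were again 13 and 1 of 22, against 14.0% and 16.5% of all. The 13 became 6 without the trend in the prior variance and 8 without growing replicate 2. By the brightest probe set of each gene, 6 of 10 genes were higher and 1 was lower in both comparisons, and in RB-KD cells 4 were higher without the trend or without growing replicate 1. Of all 13398 tested genes, 19.9% were higher and 20.7% lower in Ctrl-KD cells, and 18.0% were higher and 18.4% lower in RB-KD cells. The genes called higher in both were ALDOA, TPI1, PGK1, PGAM1 and ENO2, ALDOC was called in Ctrl-KD cells, LDHB in RB-KD cells, and PKM was the gene called lower in both. Both comparisons share the growing arrays. The median log2 fold change of the 22 probe sets was 0.60 in Ctrl-KD and 0.45 in RB-KD cells, and that of all tested probe sets was -0.05 and -0.07.

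Between the OIS states few of the probe sets were called. In RB-KD against Ctrl-KD cells 1 of 22 probe sets was called higher, an LDHB probe set, and 1 was called lower, the ALDOC probe set, against 8.96% and 7.93% of all tested probe sets. By the brightest probe set, 0 of 10 genes were higher and 1 was lower, against 11.6% and 10.3% of all tested genes. These shares are near those of all features. The median log2 fold change of the 22 probe sets was -0.04, and that of all tested probe sets was -0.02. These counts were among the least stable: without the trend in the prior variance no LDHB probe set was called, and without Ctrl-KD replicate 2 there were 2 probe sets higher and 5 lower.

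**Figure D2:**
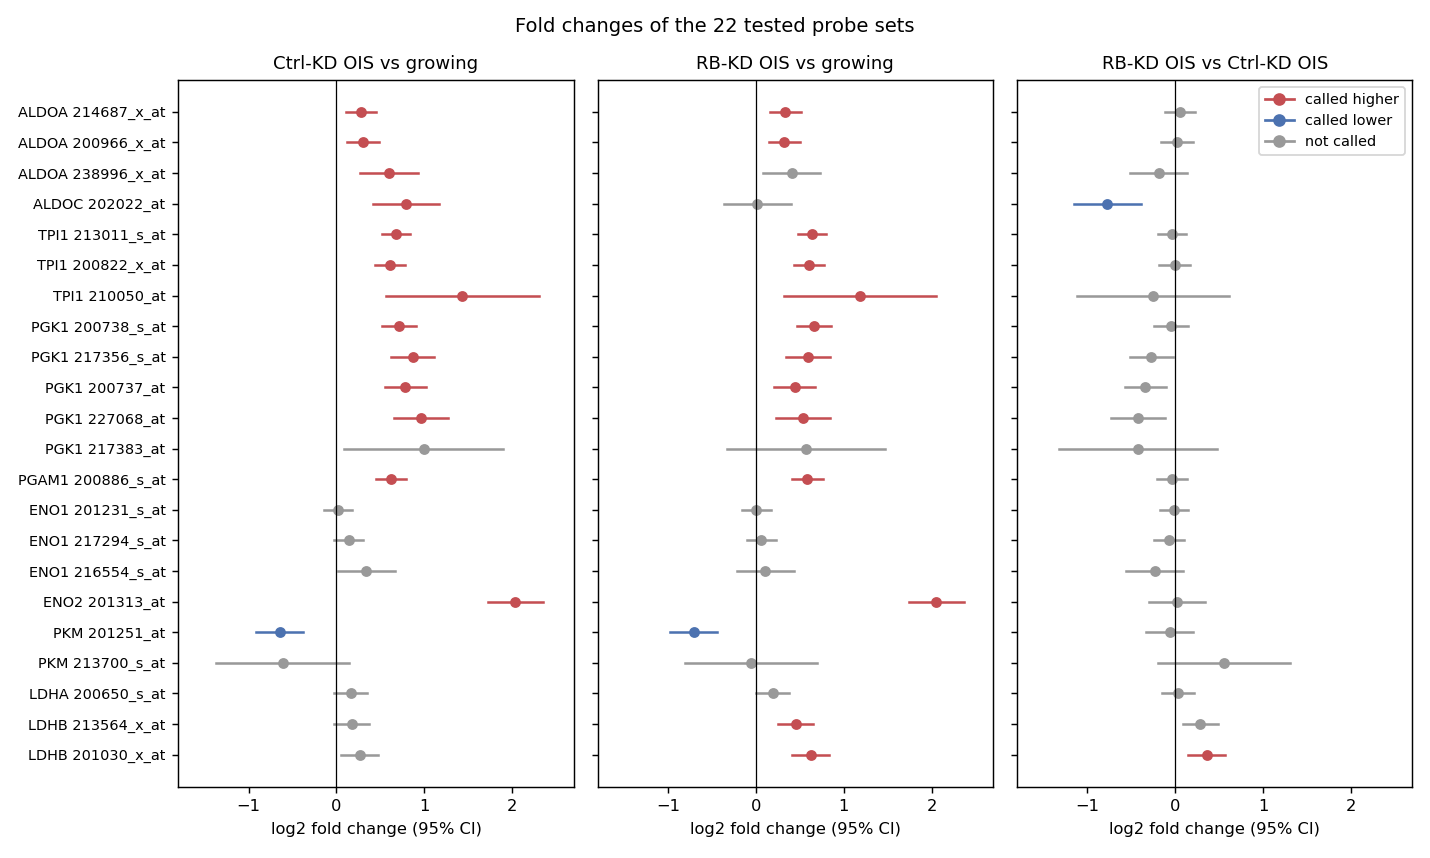
Log2 fold change of each tested probe set in the 3 comparisons, with 95% intervals from limma. TPI1, PGK1, PGAM1 and ENO2 lie above 0 in both OIS states, the brightest PKM probe set lies below 0, and between the OIS states ALDOC lies at -0.77.

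Of the aldolases, ALDOA was modestly higher in both senescent states, with calls that many alternatives end. ALDOA (chr16:30064279-30070420) gave signals of 17842 and 17251 in growing, 20592 and 22112 in Ctrl-KD and 22636 and 21712 in RB-KD cells with its brightest probe set, 214687_x_at. Every OIS array lay above both growing arrays, and the OIS arrays overlapped. The log2 fold change was 0.28 (SE 0.08, adjusted p = 0.0176) in Ctrl-KD and 0.34 (SE 0.08, adjusted p = 0.00843) in RB-KD cells, and 0.06 (95% interval -0.12 to 0.23) between the OIS states. The probe set 200966_x_at gave 0.30 and 0.32, and the dimmer 238996_x_at, at 1771 to 3296, gave 0.59 (adjusted p = 0.011) and 0.41 (adjusted p = 0.0631), the first of which was not called without growing replicate 1 (0.53, adjusted p = 0.0798). The suffix _x_at marks probe sets that can also bind related sequences, and all 3 for ALDOA carry it. Quantile normalization lowered the changes of 214687_x_at to 0.14 (adjusted p = 0.0964) and 0.16 (adjusted p = 0.0634). It was also not called in either state without the trend (adjusted p = 0.135 and 0.1002), nor without growing replicate 1 or 2, where the adjusted p reached 0.16 and 0.104, nor in RB-KD cells without RB-KD replicate 1.

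ALDOC (chr17:28573120-28576895), the brain-type aldolase, was raised in Ctrl-KD cells and not called in RB-KD cells, and the senescent states differed. Its probe set, 202022_at, gave 239 and 245 in growing, 429 and 408 in Ctrl-KD and 259 and 232 in RB-KD cells. Both Ctrl-KD arrays stood above all others, and the growing and RB-KD arrays overlapped. ALDOC was 1.73-fold higher in Ctrl-KD than in growing cells (log2 fold change 0.79, SE 0.17, adjusted p = 0.00526) and fell 1.71-fold from Ctrl-KD to RB-KD cells (log2 fold change -0.77, SE 0.17, adjusted p = 0.0132). RB-KD and growing cells differed by 0.02 (95% interval -0.36 to 0.40, adjusted p = 0.951). The fall with RB1 depletion lost its call without Ctrl-KD replicate 1 (-0.73, adjusted p = 0.0558) and without RB-KD replicate 2 (-0.69, adjusted p = 0.064). The mean ALDOC signal lay at percentile 72.9 of all probe sets. Its promoter window above holds an E-box and a second ACGTG match, and a link to these changes was not tested.

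TPI1 (chr12:6867420-6870948), the isomerase that follows aldolase, rose in both senescent states. The brightest probe set, 213011_s_at, gave 13499 and 13550 in growing, 21511 and 21880 in Ctrl-KD and 20852 and 21397 in RB-KD cells, so that growing and OIS arrays did not overlap. The log2 fold change was 0.68 (SE 0.07, adjusted p = 7.14e-05) and 0.64 (SE 0.07, adjusted p = 0.000144), and -0.04 (95% interval -0.20 to 0.12) between the OIS states. The probe set 200822_x_at gave 0.61 and 0.60. The third, 210050_at, was dim, at 71.2 to 327, and gave 1.43 (SE 0.39, adjusted p = 0.0171) and 1.18 (SE 0.39, adjusted p = 0.0435), which is a larger difference with a larger error. Over the alternatives the adjusted p of this dim probe set reached 0.116 and 0.272, with calls lost without growing replicate 2, Ctrl-KD replicate 1 or RB-KD replicate 1. GAPDH, the next enzyme, was named after its values were seen: its 3 probe sets lay between 33502 and 45782 and were not called in any of the 3 comparisons.

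PGK1 (chrX:78104248-78129295), which makes the first ATP of the lower pathway, rose in both states on each of its 4 bright probe sets. With 200738_s_at the signals were 16529 and 16979 in growing, 28355 and 26598 in Ctrl-KD and 28514 and 24713 in RB-KD cells. The log2 fold change was 0.71 (SE 0.09, adjusted p = 0.000198) and 0.66 (SE 0.09, adjusted p = 0.000399). The other bright sets agreed in direction, at 0.78 to 0.96 in Ctrl-KD and 0.44 to 0.60 in RB-KD cells, all called. Without the trend in the prior variance these other sets lost the call in RB-KD cells. The adjusted p was then 0.0947 for 200737_at, 0.0617 for 217356_s_at and 0.116 for 227068_at. In RB-KD cells 200737_at was not called without growing replicate 2 (adjusted p = 0.106) or RB-KD replicate 1 (adjusted p = 0.0702), and 227068_at was not called without either growing array (adjusted p = 0.0906 and 0.0607) or RB-KD replicate 2 (adjusted p = 0.114). Between the OIS states the probe sets gave different sizes: -0.05 for 200738_s_at, -0.27 for 217356_s_at (adjusted p = 0.134), -0.34 for 200737_at (adjusted p = 0.0548) and -0.42 for 227068_at (adjusted p = 0.0629). For 227068_at the signals were 6136 and 4644 in Ctrl-KD and 3664 and 4317 in RB-KD cells, and for 200737_at they were 6756 and 5739 against 5102 and 4754, in neither case overlapping. None passed the test between the OIS states, and where these probes lie on the PGK1 transcripts was not used here. With the filter at percentile 70, 200737_at (adjusted p = 0.0356) and 227068_at (adjusted p = 0.0419) were called lower in RB-KD cells, with the replicate number as a block 200737_at was (adjusted p = 0.0248), and without Ctrl-KD replicate 2 so were 200737_at (adjusted p = 0.0238), 217356_s_at (adjusted p = 0.0454) and 227068_at (adjusted p = 0.0129). The dim 217383_at (70.6 to 279) was not called, and 1558365_at (8.6 to 33.2) lay below the array medians and was not tested.

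PGAM1 (chr10:97426191-97433444), the mutase that moves the phosphate of 3-phosphoglycerate, gave 16300 and 16266 in growing, 26207 and 24001 in Ctrl-KD and 24926 and 24024 in RB-KD cells. Growing and OIS arrays did not overlap. The log2 fold change was 0.62 (SE 0.08, adjusted p = 0.000203) and 0.59 (SE 0.08, adjusted p = 0.000382), and -0.04 (95% interval -0.21 to 0.14) between the OIS states.

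The enolases moved apart the most of the 3 paralog pairs. ENO1 (chr1:8861000-8878686), the general form, gave 18899 and 19619 in growing, 19298 and 19689 in Ctrl-KD and 19317 and 19349 in RB-KD cells with 201231_s_at, and all 3 groups overlapped. Its log2 fold change was 0.02 (95% interval -0.14 to 0.18) and 0.01 (95% interval -0.16 to 0.17), and quantile normalization gave -0.13 and -0.17, not called. The other tested ENO1 sets gave 0.14 (217294_s_at) and 0.34 (216554_s_at, adjusted p = 0.0998) in Ctrl-KD cells and 0.06 and 0.11 in RB-KD cells. Quantile normalization called 216554_s_at higher in Ctrl-KD cells (0.45, adjusted p = 0.0386). The fourth probe set, 240258_at (6.9 to 50.9), exceeded the array median on 1 of 6 arrays, Ctrl-KD replicate 2, and was not tested. When the log2 signals of all ENO1 probe sets were averaged, this dim one included, ENO1 was called lower in RB-KD than Ctrl-KD cells (-0.56, adjusted p = 0.0465).

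ENO2 (chr12:6914580-6923697), the form known as neuron-specific enolase, gave 358 and 383 in growing, 1722 and 1337 in Ctrl-KD and 1502 and 1572 in RB-KD cells. No OIS array came near the growing arrays, and the OIS states overlapped. The rise was 4.10-fold in Ctrl-KD (log2 fold change 2.04, SE 0.14, adjusted p = 5.09e-06) and 4.15-fold in RB-KD cells (2.05, SE 0.14, adjusted p = 6.84e-06), with 0.02 (95% interval -0.30 to 0.33) between them. Of the neuronal markers, MAP2 was 183.8 and 165.9 in growing and 4.9 to 24.6 in OIS cells, and SYP lay below the median on every array. GAP43 was 65 and 22.6 in growing, 8.5 and 85.1 in Ctrl-KD and 5.8 and 19.6 in RB-KD cells, and was not called. The summed signal of MAP2, SYP and GAP43 was 195.4 to 254.2 in growing and 13 to 111.5 in OIS cells. Measured over the 6 arrays as the root mean square difference in log2 signal after removing the growing mean, the genes closest to ENO2 among 13398 were DUSP6 (0.0892), BPGM (0.105) and RAB31 (0.131), and those closest to ALDOC were SNAPC3 (0.0473), KLHL28 (0.0522) and NMRK1 (0.0606).

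PKM (chr15:72199029-72231591) encodes pyruvate kinase, whose M1 and M2 isoforms arise by alternative splicing. The brighter of its 2 probe sets, 201251_at, gave 1510 and 1786 in growing, 1031 and 1071 in Ctrl-KD and 1042 and 970 in RB-KD cells, and every OIS array lay below both growing arrays. The log2 fold change was -0.64 (SE 0.12, adjusted p = 0.00246) and -0.71 (SE 0.12, adjusted p = 0.00176), and -0.06 (95% interval -0.33 to 0.21) between the OIS states. The dimmer, 213700_s_at, gave 138 and 129 in growing, 67.5 and 113 in Ctrl-KD and 149 and 110 in RB-KD cells, with log2 fold changes of -0.61 (95% interval -1.36 to 0.14) and -0.06 (95% interval -0.81 to 0.70). The second probe set passed the test in neither state, and its intervals include changes as large as those of the first probe set. When the log2 signals of both were averaged, PKM was no longer called in RB-KD cells (-0.38, adjusted p = 0.193). Which isoform either probe set reads was not used here.

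Of the lactate dehydrogenases, LDHB was higher in RB-KD than in growing cells on both probe sets. LDHA (chr11:18394563-18408425), the form that favours lactate formation, gave 33075 and 32887 in growing, 36110 and 37625 in Ctrl-KD and 40184 and 35288 in RB-KD cells. Its log2 fold change was 0.16 (95% interval -0.02 to 0.34, adjusted p = 0.169) and 0.19 (95% interval 0.01 to 0.38, adjusted p = 0.112), and with each array centred on its median it was 0.25 (adjusted p = 0.036) and 0.30 (adjusted p = 0.0186). LDHB (chr12:21635342-21657842), the heart-type form, gave 26990 and 28013, then 29272 and 32895, then 39966 and 35660 in the same order with 213564_x_at. Both RB-KD arrays exceeded all others. Against growing cells LDHB was 0.46 higher (SE 0.09, adjusted p = 0.00372) in RB-KD and 0.17 (adjusted p = 0.165) in Ctrl-KD cells on this probe set, and 0.63 (adjusted p = 0.000832) and 0.27 (adjusted p = 0.0521) on 201030_x_at. In Ctrl-KD cells both probe sets were called higher with median centring (0.27, adjusted p = 0.0336, and 0.36, adjusted p = 0.0104) and without Ctrl-KD replicate 1 (adjusted p = 0.0490 and 0.00712), and 201030_x_at also with the offset and the stricter filter. Between the OIS states it was 0.28 (adjusted p = 0.0574) and 0.36 (adjusted p = 0.028). The brighter probe set was not called in RB-KD cells without the trend (0.46, adjusted p = 0.0745) or without growing replicate 1 (0.43). Both LDHB probe sets carry the suffix _x_at and can also bind related sequences. The call between the OIS states is at the edge, since over the alternatives the adjusted p of 201030_x_at ran from 0.0074 to 0.192, and leaving out Ctrl-KD replicate 1 or either RB-KD array ended it.

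To ask whether paralogs changed unequally, the difference in log2 signal between their brightest probe sets was taken on each array and set against the mean of the growing arrays. An exact permutation test of 2 against 2 arrays, two-sided, cannot give less than 0.333. The ENO2/ENO1 ratio changed by 2.22 and 1.82 in Ctrl-KD and by 2.02 and 2.08 in RB-KD cells (exact p = 0.333 each), so that ENO2 gained about 4-fold on ENO1 in both states. The ALDOC/ALDOA ratio changed by 0.59 and 0.42 in Ctrl-KD but by -0.27 and -0.37 in RB-KD cells, a difference of -0.83 between the states (exact p = 0.333). In every array of these groups the sign was the same, and it held with other ALDOA probe sets, at 0.19 to 0.80 in Ctrl-KD and -0.39 to -0.03 in RB-KD cells over all alternatives. The LDHB/LDHA ratio was -0.04 and 0.07 in Ctrl-KD and 0.25 and 0.28 in RB-KD cells. The second over the first PKM probe set changed by -0.31 and 0.37 in Ctrl-KD and by 0.82 and 0.48 in RB-KD cells. These are changes of ratios between probe sets and not ratios of mRNA amounts.

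**Figure D3:**
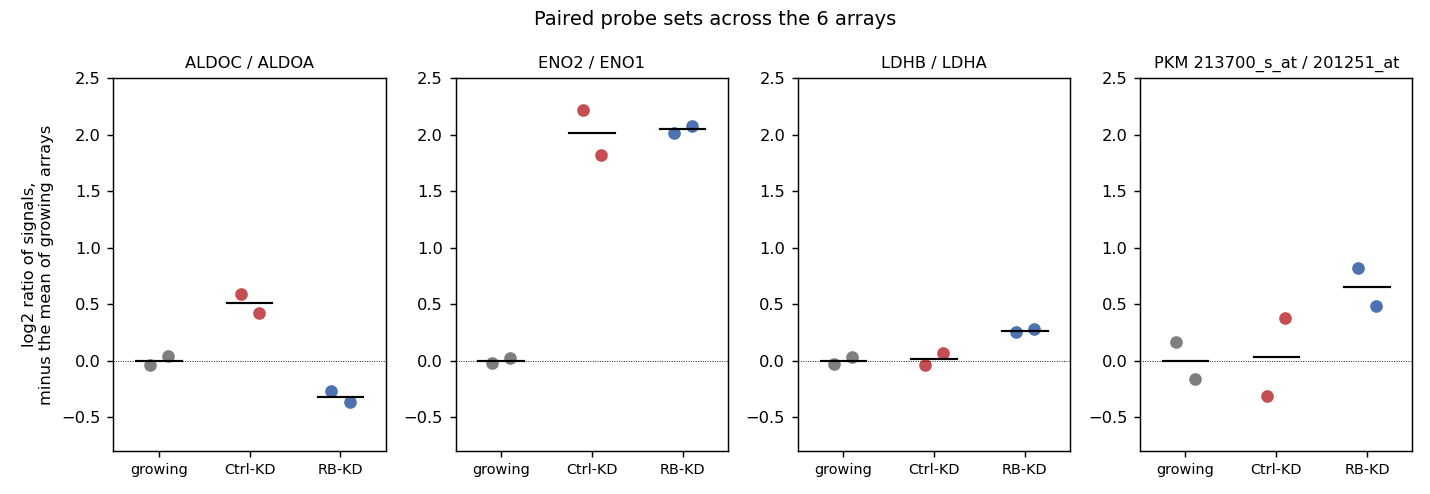
Log2 ratio between paralogs, or between the PKM probe sets, on each of the 6 arrays, minus the mean of the growing arrays. ENO2/ENO1 rises to between 1.82 and 2.22 in both OIS states, and ALDOC/ALDOA is above 0 in Ctrl-KD and below 0 in RB-KD cells.

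The rest of the pathway was listed as 38 genes, of which 33 had a probe set of their own and 25 were tested. Against growing cells 5 were higher and 7 lower in Ctrl-KD and 6 were higher and 3 lower in RB-KD cells, while RB-KD against Ctrl-KD cells gave 9 higher and 2 lower. As shares of 25, the counts against growing cells stand beside 19.9% higher and 20.7% lower of all tested genes in Ctrl-KD and 18.0% and 18.4% in RB-KD cells, and those between the OIS states beside 11.6% and 10.3%. Between the OIS states the counts fell to 2 and 0 without the trend and to 4 and 0 without RB-KD replicate 1. The medians were 0.04, 0.06 and 0.07, below those of the lower enzymes against growing cells. Of the 5 tested genes in the list of paralogs and the bypass enzyme, 1 was called higher, against 19.9% and 18.0% of all tested genes. It was BPGM, which makes 2,3-bisphosphoglycerate. BPGM rose from 1098 and 1025 to 4687 and 3816 in Ctrl-KD and 4665 and 4022 in RB-KD cells (1.99 and 2.03 on the log2 scale). In upper glycolysis 4 of 6 tested genes were higher in Ctrl-KD and 3 in RB-KD cells, against 19.9% and 18.0% of all tested genes. HK2, a hexokinase, changed by 1.36 and 1.33, although its Ctrl-KD arrays were far apart (7969 and 3352), and it was not called without the trend (adjusted p = 0.0878 and 0.0999) or with the mean of its probe sets (0.43 and 0.50). In RB-KD cells HK2 was also not called without either RB-KD array (adjusted p = 0.0593 and 0.0509), and HK1 was not called without the trend (adjusted p = 0.0734) or growing replicate 1 (adjusted p = 0.0543). GPI, the isomerase of glucose-6-phosphate, changed by 1.00 and 0.79, and HK1 by 0.95 and 0.61. PFKM, a phosphofructokinase, was at 0.52 (adjusted p = 0.00308) in Ctrl-KD, 0.06 in RB-KD and -0.46 (adjusted p = 0.0132) between the OIS states. That fall was not called without the trend (adjusted p = 0.115), Ctrl-KD replicate 2 (-0.38) or RB-KD replicate 1 (-0.39). The other phosphofructokinases did not fall with it: PFKP was 0.30 higher in RB-KD than in Ctrl-KD cells (adjusted p = 0.0445), and PFKL was not called.

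Of the side branch genes, PHGDH and PSAT1 of the serine pathway changed most. PSPH of the same pathway was not called (0.06 in Ctrl-KD, -0.12 in RB-KD and -0.18 between the OIS states). PHGDH and PSAT1, which draw 3-phosphoglycerate into serine synthesis, fell in both states (log2 fold changes of -3.02 and -2.64 in Ctrl-KD, -1.32 and -1.07 in RB-KD cells), and were 1.70 (adjusted p = 6.55e-05) and 1.57 (adjusted p = 0.000142) higher in RB-KD than in Ctrl-KD cells. Of 6 tested branch genes 0 were higher and 4 lower in Ctrl-KD, against 19.9% and 20.7% of all tested genes, while RB-KD against Ctrl-KD cells gave 4 higher and 1 lower, against 11.6% and 10.3%. GPD2, the mitochondrial glycerol-3-phosphate dehydrogenase, was -0.95 in Ctrl-KD and 1.04 higher in RB-KD than in Ctrl-KD cells, whereas GPD1L fell in both comparisons with growing cells (-0.69 and -1.36), the former not called without growing replicate 1 (adjusted p = 0.136) or Ctrl-KD replicate 1 (adjusted p = 0.0842). Of 4 tested genes of lactate and pyruvate transport 1 was called, against 18.0% higher of all tested genes in RB-KD cells and 11.6% between the OIS states. It was MPC2, a subunit of the mitochondrial pyruvate carrier, at 0.91 in RB-KD (adjusted p = 4.37e-05) and 0.70 between the OIS states (adjusted p = 0.000656). MPC1, another subunit of that carrier, was not called (0.01 in RB-KD and -0.03 between the OIS states). Of the 4 splicing factors that act on PKM, PTBP1 was not called (0.13 in Ctrl-KD, 0.25 in RB-KD and 0.12 between the OIS states). HNRNPA1, SRSF3 and HNRNPA2B1 were lower in Ctrl-KD cells (-0.69, -0.48 and -0.40), against 20.7% lower of all tested genes. They were higher in RB-KD than in Ctrl-KD cells (0.44, 0.34 and 0.44), against 11.6% higher of all. In Ctrl-KD cells HNRNPA2B1 was not called without the trend (adjusted p = 0.0715). Nor was SRSF3 with the mean of its probe sets (-0.44, adjusted p = 0.0934). Between the OIS states none of the 3 was called without the trend or without RB-KD replicate 1 (adjusted p = 0.0671, 0.0748 and 0.0564), SRSF3 was not called without RB-KD replicate 2 (adjusted p = 0.0595), and without the trend the rises of MPC2 (adjusted p = 0.0519) and GPD2 (adjusted p = 0.0721) were not called either. With the mean of a gene's probe sets the differences between the OIS states became 0.44 (adjusted p = 0.56) for GPD2 and 0.06 (adjusted p = 0.873) for SRSF3.

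**Figure D4:**
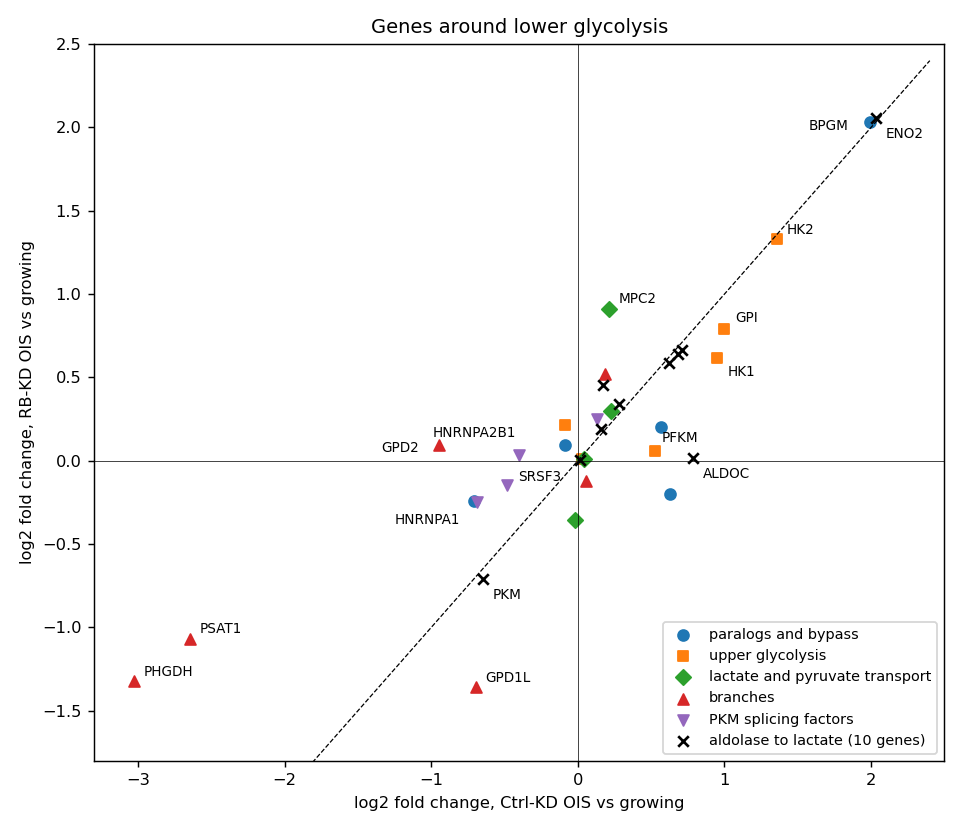
Log2 fold change against growing cells of each tested gene of the pathway by its brightest probe set, in Ctrl-KD (horizontal) and RB-KD cells (vertical), with the line of equal change. The axes share the growing arrays. ENO2 and BPGM lie near 2 on both axes, ALDOC and PFKM lie to the right of 0 near the horizontal line, and PHGDH and PSAT1 lie lower in Ctrl-KD than in RB-KD cells.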

How the data were processed

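RNA of 2 independent experiments per group was hybridized by the authors to Affymetrix U133 Plus 2.0 arrays. The deposited intensities are MAS5 signals computed by the authors in Affymetrix Expression Console, with no version given in the sources used here; they are linear, scaled to a common level (trimmed mean 496.15 to 496.465 per array, leaving out 2% at each end), and carry no detection calls. The number of arrays limits the precision.

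Log2 was applied without an offset. Probe sets were named from the platform table: 41091 name 1 gene, 1801 several and 11721 none, and no probe set named a member with another gene. Groups came from the labels. The test was made for the 30139 probe sets that exceeded the array median on 2 or more of the 6 arrays, using limma 3.58.1 under R 4.3.3 (group means, 6 arrays, variance prior with a trend in signal), and adjusted by Benjamini and Hochberg (threshold 0.05). A gene is its brightest probe set. The code was tested on simulated data with 200 changed probe sets; its spread was set to the moderated variances after a first version, drawn from raw variances, recovered few changes.

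The alternatives tried were median centring, quantile normalization, adding 12.5 before log2, no filter, a filter at percentile 70, 1 probe set per gene, the mean of probe sets, no trend, only the 2 groups compared, a block for the replicate number, and the fit without each array in turn. All 10 members are named, with up to 4 called genes of each pathway list having the largest change, RB1, and the 3 genes nearest to ALDOC and to ENO2. PFKP and PFKL were added beside PFKM after their values were seen. So were PSPH beside PHGDH and PSAT1, MPC1 beside MPC2, and PTBP1 beside the other splicing factors. The members, lists and rule were chosen with earlier results of these data known. Promoter windows and gene positions are from RefSeq (GRCh38.p14). Flux, mass spectrometry and ChIP data were not analysed here.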

Additional observations from a re-analysis of the deposited data

How the results depend on the processing

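The rises of TPI1 (both bright probe sets), PGK1 (200738_s_at), PGAM1 and ENO2 against growing cells, the rise of ALDOC in Ctrl-KD cells and the fall of PKM 201251_at in Ctrl-KD cells kept their direction and call under every alternative run. Medians of all tested probe sets moved by up to about 0.11 with scaling (RB-KD against growing cells -0.07, and 0.04 after median centring). No cause of any change below was tested.

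Against growing cells, without the trend 6 member probe sets were higher in RB-KD cells, and the mean of probe sets left 0 genes lower there. Pathway genes lower in RB-KD cells became 5 with quantile normalization and with the stricter filter. Between the OIS states, member probe sets called higher were 2 with quantile normalization, median centring and the stricter filter, and 0 with no filter, no trend and only 2 groups. Member genes called higher were 1 with quantile normalization, median centring, the stricter filter and 1 probe set per gene. Member probe sets called lower were 3 with the stricter filter, and member genes called lower 2 with the mean of probe sets. Pathway genes called higher were 5 with the mean of probe sets and 2 with no trend, and those called lower 1 with no filter, the mean of probe sets and only 2 groups, and 0 with no trend. Leaving out 1 array gave 8 to 12 member probe sets higher in RB-KD than in growing cells, and between the OIS states 0 to 2 member probe sets higher and 0 to 5 lower, 0 to 1 member genes higher and 0 to 1 lower, and 4 to 9 pathway genes higher and 0 to 2 lower.

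The 41 reversed fold changes belong to values not called as reported, and under the alternative 1 was called, HK2 between the OIS states without Ctrl-KD replicate 1 (0.59, adjusted p = 0.00825). The named pathway genes, apart from GAPDH, PFKP, PFKL, PSPH, MPC1 and PTBP1, were put through the same alternatives after the data were seen. Quantile normalization gave ENO1 201231_s_at -0.13 and -0.17 in Ctrl-KD and RB-KD against growing cells, PKM 213700_s_at 0.0783 in RB-KD against growing cells, LDHA -0.0486 and ENO2 -0.00520 between the OIS states, HNRNPA2B1 -0.14 in RB-KD against growing cells, and the LDHB/LDHA ratio -0.0537 in Ctrl-KD cells. Median centring gave PKM 213700_s_at 0.0540 in RB-KD against growing cells, and TPI1 200822_x_at 0.0107 and ENO1 201231_s_at 0.00580 between the OIS states. The mean of probe sets gave ENO1 -0.44, GPD2 -0.63 and HNRNPA2B1 -0.19 in RB-KD against growing cells, and ALDOA -0.0376, PKM 0.25 and HK2 0.0707 between the OIS states. Leaving out 1 array gave, between the OIS states, ALDOA 200966_x_at -0.0448 to 0.0861, ALDOA 238996_x_at -0.43 to 0.0485, TPI1 200822_x_at -0.0671 to 0.0534, TPI1 210050_at -0.68 to 0.18, PGK1 200738_s_at -0.15 to 0.0542, PGAM1 -0.0989 to 0.0279, ENO1 201231_s_at -0.0263 to 0.00265, ENO2 -0.16 to 0.20, LDHA -0.0629 to 0.12, BPGM -0.11 to 0.18, HK2 -0.66 to 0.59 and ENO2/ENO1 -0.17 to 0.23. In RB-KD against growing cells it gave ALDOC -0.0610 to 0.0971, PGK1 217383_at -0.00628 to 1.14, ENO1 201231_s_at -0.0212 to 0.0327, ENO1 216554_s_at -0.0253 to 0.24 PKM 213700_s_at -0.28 to 0.16, GPD2 -0.11 to 0.29, HNRNPA2B1 -0.0324 to 0.09997 and PFKM -0.0158 to 0.13. In Ctrl-KD against growing cells it gave ENO1 201231_s_at -0.00933 to 0.0446, LDHB/LDHA -0.0405 to 0.0686 and the PKM probe set ratio -0.31 to 0.37.

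The replicate numbers were not shown to pair samples, since same-numbered arrays deviated with correlations of 0.010, -0.014 and 0.036. With the replicate block 2 instead of 1 member probe sets were called lower between the OIS states, ALDOC and PGK1 200737_at.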
